A study of Mus musculus with 4 samples.

Results

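CC chemokines are small secreted proteins named for a pair of cysteines that stand side by side near the start of the mature chain. Cells release them, and leukocytes that carry the matching G protein-coupled receptors move towards the source. In injured nerves and their ganglia they are known for drawing monocytes out of the blood. The 10 members described here, *Ccl2*, *Ccl3*, *Ccl4*, *Ccl5*, *Ccl6*, *Ccl7*, *Ccl8*, *Ccl9*, *Ccl11* and *Ccl12*, were taken by symbol from the 33456 genes listed in the deposited matrices, and each was listed and detected.

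The study profiled whole dorsal root ganglia (DRG), the clusters of sensory neuron cell bodies beside the spinal cord, by droplet single cell RNA-seq. Its control group was uninjured ganglia and its injury group was ganglia taken 3 days after a crush of the sciatic nerve. All came from female C57BL/6 mice of 8 to 12 weeks. There were 2 libraries per group, described as biological replicates, and no other allele or strain was named for either group. The methods name isoflurane and buprenorphine for surgery, and whether the control mice received them is not stated. The labels name the L4 ganglion and the paper L4 and L5, and cells of several mice were pooled for each batch. Ganglia were digested with papain and collagenase and live cells were sorted before loading, so every level was measured after dissociation. The library that carries no number in the labels is called replicate 1 of its group here, and values by library are given in the order control 1, control 2, injury 1, injury 2.

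Of 6975 deposited barcodes, 6095 were inside the methods' bounds on UMIs, genes and mitochondrial share, and these cells had a median of 2775 to 4845 UMIs per library. A UMI is a tag that marks 1 captured RNA molecule. Because each molecule was read at its 3′ end, UMI levels were not divided by transcript length. The files carry no cell names, so a cell was put in the type with the most of its 8 fixed markers detected, which assigned 5038 cells. No chemokine was among those markers. Types are written as macrophage-like and so on. A level is given as the UMIs of a gene per 1000000 UMIs of the cells of that library and type (CPM). In every type with any cell but 1, the 8 markers summed to more CPM in their own gate than in any other. The exception was the monocyte markers, at 12565 CPM in monocyte-like and 13924 CPM in neutrophil-like cells. Between 1 and 6 cell barcodes were shared by any pair of libraries.

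All 10 genes lie on mouse chromosome 11 in a pair of clusters (GRCm38, GENCODE vM21). The first, chr11:82035571-82116799, holds *Ccl2*, *Ccl7*, *Ccl11*, *Ccl12* and *Ccl8*, all on the plus strand within 81.2 kb. The second, chr11:83525778-83664683, holds *Ccl5*, *Ccl9*, *Ccl6* and *Ccl3* on the minus strand and *Ccl4* on the plus strand, within 138.9 kb. The clusters are 1409 kb apart. *Ccl6* and *Ccl9* have 4 exons and the other 8 genes have 3. The family's signature is shown in the coding strand around the adjacent cysteine codons, which are in capitals. They lie in exon 3 of *Ccl6* and *Ccl9* and in exon 2 of the others:

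Ccl2 (chr11:82036491-82036535, plus strand): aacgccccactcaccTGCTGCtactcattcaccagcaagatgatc
Ccl7 (chr11:82046523-82046567, plus strand): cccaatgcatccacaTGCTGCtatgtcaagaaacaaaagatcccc
Ccl11 (chr11:82061681-82061725, plus strand): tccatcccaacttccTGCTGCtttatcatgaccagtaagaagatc
Ccl12 (chr11:82102619-82102663, plus strand): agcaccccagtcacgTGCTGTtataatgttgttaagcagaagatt
Ccl8 (chr11:82116041-82116085, plus strand): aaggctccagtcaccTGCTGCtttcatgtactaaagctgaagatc
Ccl5 (chr11:83529218-83529262, minus strand): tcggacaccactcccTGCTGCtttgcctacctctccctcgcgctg
Ccl9 (chr11:83575902-83575946, minus strand): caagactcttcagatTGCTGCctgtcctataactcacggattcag
Ccl6 (chr11:83589362-83589406, minus strand): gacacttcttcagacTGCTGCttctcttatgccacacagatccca
Ccl3 (chr11:83648628-83648672, minus strand): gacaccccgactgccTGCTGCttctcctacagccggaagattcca
Ccl4 (chr11:83663467-83663511, plus strand): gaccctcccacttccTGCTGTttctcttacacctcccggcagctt

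Each coding sequence held exactly 1 such pair of adjacent cysteine codons. Across the 45 pairs of members, coding identity had a median of 50.6% and a highest value of 68.1%, between *Ccl3* and *Ccl4*. *Ccl6* and *Ccl9* shared the longest identical run of transcript, 25 bases, which is shorter than a usual sequencing read.

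The kept cells held 74977 UMIs of the family, of which 71.2% lay in macrophage-like cells (1005 cells) and 16.1% in fibroblast-like cells (1242 cells). Macrophage-like cells held most of the UMIs of *Ccl8* (96.7%), *Ccl12* (95.7%), *Ccl3* (87.3%), *Ccl4* (85.8%), *Ccl2* (73.0%) and *Ccl7* (69.1%). Fibroblast-like cells held 94.9% of *Ccl11*. *Ccl5* was the outlying case, with 21.4% in T cell-like, 18.2% in macrophage-like and 10.2% in NK cell-like cells and 40.0% in cells that no gate took.

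**Figure D1:**
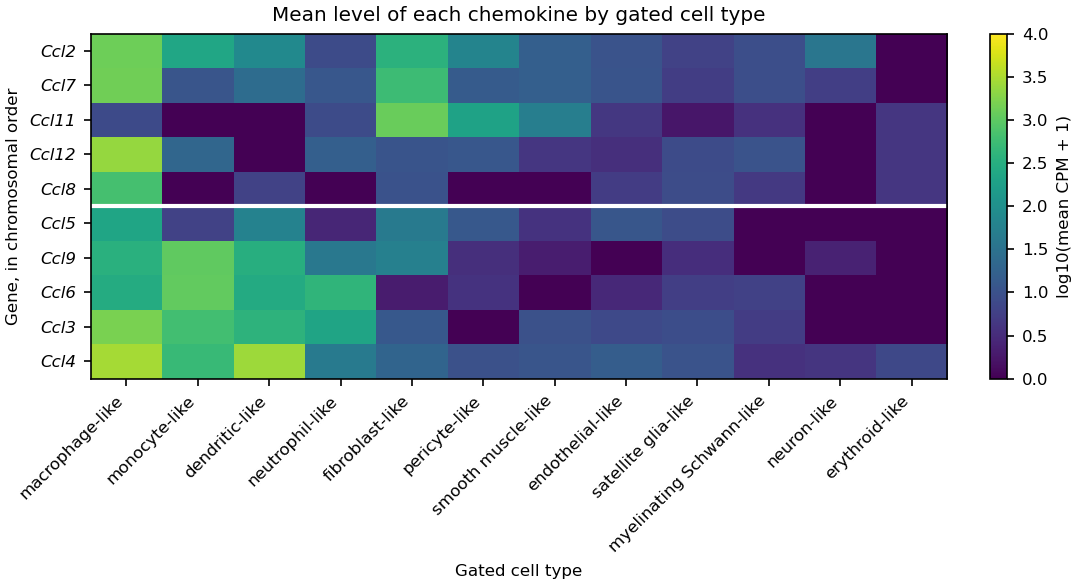
Level of each chemokine (rows, grouped by chromosomal cluster, with a white line between the clusters) in the 12 gated cell types with at least 2 libraries of 10 or more cells (columns), coloured by log10 of the mean CPM over libraries plus 1. Macrophage-like cells have the highest mean for *Ccl2*, *Ccl7*, *Ccl12*, *Ccl8*, *Ccl3*, *Ccl4* and *Ccl5*, and monocyte-like cells for *Ccl6* and *Ccl9*. For *Ccl5* the macrophage-like mean is within the spread of the next type. T cell-like and NK cell-like cells, which also held *Ccl5*, are not among the types shown. *Ccl11* is highest in fibroblast-like cells, followed by pericyte-like cells.

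To find which cells hold each member, UMIs were summed per library and type. Each type was compared with the mean of the other types in 1 edgeR quasi-likelihood fit over 12 types, with library as a block. That mean was taken over log levels with equal weight per type, so types with no UMI of a gene lower it. A type called higher can thus be below the plain mean CPM of the others. A call needed an adjusted p (Benjamini-Hochberg, over every gene tested) below 0.05. In macrophage-like cells 9 of the 10 members were higher, all but *Ccl11*, beside 33.6% of all 6764 genes. In fibroblast-like cells 5 were higher, *Ccl2*, *Ccl7*, *Ccl8*, *Ccl9* and *Ccl11*, beside 34.7% of all genes. In monocyte-like cells 5 were higher, *Ccl2*, *Ccl3*, *Ccl4*, *Ccl6* and *Ccl9*, beside 20.4%. In dendritic-like cells 4 were higher, *Ccl3*, *Ccl4*, *Ccl6* and *Ccl9*, beside 15.3%. In neutrophil-like cells 2 were higher, *Ccl3* and *Ccl6*, beside 15.7%, and in pericyte-like cells *Ccl11* alone was, beside 17.5%. The share called among members was above that of all genes in macrophage-like, monocyte-like and dendritic-like cells. In fibroblast-like, neutrophil-like and pericyte-like cells it was near that of all genes for a set of 10, and is not read as a result about the members. The part that the monocyte markers of the neutrophil-like gate have in its *Ccl3* and *Ccl6* calls was not tested.

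The ligands of Ccr2, the receptor that monocytes carry, are *Ccl2*, *Ccl7* and *Ccl12*. *Ccl12* was the most restricted of them. In macrophage-like cells it stood at 3813, 1697, 2093 and 1681 CPM, and its mean of 2321 ± 1013 CPM (SD, n = 4 libraries) was 114 times that of the next type, monocyte-like cells at 20.3 ± 23.9 CPM (n = 3). Macrophage-like and monocyte-like libraries did not overlap.

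*Ccl2* stood at 2108, 792, 1618 and 637 CPM in macrophage-like cells and at 595, 164, 425 and 321 CPM in fibroblast-like cells. The macrophage-like mean of 1289 ± 696 CPM was above the fibroblast-like mean of 376 ± 181 CPM by more than their spread, whereas fibroblast-like and monocyte-like cells (234 ± 146 CPM, n = 3) were within theirs. *Ccl7* stood at 2097, 549, 1755 and 1032 CPM in macrophage-like and 631, 279, 747 and 546 CPM in fibroblast-like cells. The means of the 2 types differed by less than the spread between libraries, but within every library *Ccl7* was higher in macrophage-like cells. Both types thus held both genes, which was not so for *Ccl12*. The next type after fibroblast-like cells held *Ccl7* at 24.6 ± 22.4 CPM (n = 2).

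*Ccl2* has been studied in sensory neurons, so its level there is given. The neuron-like gate held only 66 cells, with 8 *Ccl2* UMIs in control replicate 2 (22.8 CPM, 40 cells) and 8 in injury replicate 2 (49.4 CPM, 16 cells). In satellite glia-like cells, which surround the neurons, it stood at 5.61, 2.04, 9.45 and 3.67 CPM. These levels came from 1, 4, 21 and 5 UMIs, the first in 61 cells.

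*Ccl8*, a ligand of Ccr8 in mice, was the second gene nearly confined to macrophage-like cells. It stood there at 721, 128, 799 and 976 CPM, a mean of 656 ± 368 CPM, which was 71.7 times that in fibroblast-like cells (9.15 ± 5.32 CPM). On the log scale the fibroblast-like level was above the mean of the other types (edgeR adjusted p = 0.0139), several of which had no *Ccl8* UMI. It was within the spread of satellite glia-like cells (7.58 ± 7.86 CPM), and only 2.74% of fibroblast-like cells had a UMI.

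*Ccl11*, also called eotaxin, acts on Ccr3, the receptor of eosinophils. It stood at 1871, 637, 1396 and 917 CPM in fibroblast-like cells. In control 1 and injury 1, the 2 libraries with at least 10 pericyte-like cells, those cells held it at 146 and 257 CPM. The fibroblast-like mean of 1205 ± 543 CPM (n = 4) was 5.98 times the pericyte-like mean of 201 ± 78.8 CPM (n = 2), over unlike sets of libraries. In macrophage-like cells it stood at 16.1, 3.86, 5.16 and 2.72 CPM, and its mean there was the lowest of the 10 members. The fibroblast-like cells that carried *Pi16* or *Dpp4*, markers of adventitial fibroblasts, held it at 934, 216, 987 and 701 CPM, and those without held it at 2067, 756, 1486 and 974 CPM. The level was lower with these markers in 4 of 4 libraries, a difference for which no test was run.

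*Ccl3* and *Ccl4* are among the macrophage inflammatory proteins, and they draw monocytes and lymphocytes. In macrophage-like cells *Ccl3* stood at 2622, 1117, 1726 and 766 CPM and *Ccl4* at 4315, 2303, 3255 and 1560 CPM. *Ccl4* was also high in dendritic-like cells, at 2249 and 3021 CPM in control 1 and injury 1, the 2 libraries with at least 10 of them. Both values were below the macrophage-like level of the same library, although the means of the types differed by less than the spread between libraries. *Ccl3* was lower there, at 395 and 384 CPM. Of the 54 dendritic-like cells, 23 had a *Ccl4* UMI, and 1 of them held 19.1% of all 619 UMIs.

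*Ccl6* and *Ccl9* are rodent ligands of Ccr1. They were highest in monocyte-like cells, where *Ccl6* stood at 1289, 1602 and 370 CPM and *Ccl9* at 1444, 1240 and 512 CPM in control 1, injury 1 and injury 2, the libraries with at least 10 such cells. The means of 1087 ± 640 and 1065 ± 490 CPM compare with 288 ± 105 and 349 ± 37.3 CPM in macrophage-like cells. The step from monocyte-like to macrophage-like cells was larger than the spread between libraries for *Ccl9* but not for *Ccl6*. Within each of these libraries *Ccl6* was nevertheless lower in macrophage-like cells, at 368, 221 and 176 CPM. Dendritic-like cells held them at 275 ± 40.4 and 324 ± 98.5 CPM (n = 2). Neutrophil-like cells came second for *Ccl6*, at 421 ± 597 CPM (n = 4), within the spread of monocyte-like cells, and held *Ccl9* at 39.4 ± 32.2 CPM.

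The 2 genes parted in fibroblast-like cells. *Ccl9* had 301 UMIs there in 103 cells, and *Ccl6* had 5 UMIs in 5 cells. In the fibroblast-like cells with *Ccl9*, the 301 *Ccl9* UMIs came with 1 *Ccl6* UMI, whereas macrophage-like cells with *Ccl9* held 1536 and 844 UMIs of the 2 genes and monocyte-like cells with *Ccl9* held 408 and 404.

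The 250 bases before the start sites of these 2 neighbours are shown because the genes were alike in monocyte-like and macrophage-like cells and unlike in fibroblast-like cells. They are RefSeq sequences of GRCm38.p6, given in the direction of transcription. Capitals mark, on either strand, the TATA letters TATAAA, the AP-1-type letters TGANTCA, where N is any base, and the NF-kB-type letters GGNNTTTCC:

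Ccl6 (chr11:83593088-83593337, minus strand): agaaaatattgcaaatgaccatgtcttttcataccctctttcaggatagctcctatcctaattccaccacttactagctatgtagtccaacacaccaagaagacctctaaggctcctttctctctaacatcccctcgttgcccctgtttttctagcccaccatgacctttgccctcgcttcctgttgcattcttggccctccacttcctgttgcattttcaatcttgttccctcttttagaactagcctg
Ccl9 (chr11:83578637-83578886, minus strand): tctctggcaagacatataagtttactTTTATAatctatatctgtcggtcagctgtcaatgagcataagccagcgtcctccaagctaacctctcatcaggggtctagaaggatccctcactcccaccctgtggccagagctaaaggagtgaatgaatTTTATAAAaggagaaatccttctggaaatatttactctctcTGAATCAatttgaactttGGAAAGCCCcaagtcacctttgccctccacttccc

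The *Ccl9* window held all 3 kinds of letters and the *Ccl6* window none, and the windows were 46.2% identical. Of the 32851 promoters in the same table, 12.4% held TATAAA, 6.75% TGANTCA and 4.93% GGNNTTTCC within 250 bases. In *Ccl9* the AP-1-type letters began 53 bases and the NF-kB-type letters 35 bases before the start site, and they did not overlap. The TATAAA letters there, on either strand, began 224, 94 and 92 bases before the start site. The table held 5 of the 10 members, and *Ccl12* and *Ccl8* had TATAAA as well. A match in letters is a description of the window and not a binding site.

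*Ccl5*, a product of activated T cells and NK cells that draws further T cells and monocytes, was distributed unlike the rest. In T cell-like cells it stood at 4753 CPM in control replicate 1 (45 cells), and 64.7% of all 51 T cell-like cells had a UMI (exact 95% interval 50.1% to 77.6%, counting error only). The 6 NK cell-like cells of that library held it at 22984 CPM. Only this library had at least 10 T cell-like cells, so neither type entered the comparison of types.

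*Ccl5* was also concentrated in few cells. The 60 kept cells with at least 10 *Ccl5* UMIs held 92.3% of its UMIs, and 45, 5, 8 and 2 of them were in the 4 libraries. Of the 60, 41 had a T or NK marker and 35 a dendritic marker. They included 20 T cell-like, 6 NK cell-like, 12 macrophage-like and 18 unassigned cells. A dendritic marker was found in 8 of these T cell-like and 4 of these NK cell-like cells, so it does not set dendritic cells apart here. In fibroblast-like cells of injury replicate 2, 207 of 208 UMIs came from 1 cell, and in satellite glia-like cells 60 of 67 did.

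Shares of cells with a UMI were not in the order of the levels in macrophage-like cells, where *Ccl9* and *Ccl6* had higher shares than *Ccl7* and *Ccl8* at lower mean levels. Of macrophage-like cells, 67.7% had *Ccl3* (exact 95% interval 64.7% to 70.5%), 65.2% *Ccl12*, 64.7% *Ccl4*, 57.6% *Ccl2*, 50.8% *Ccl9*, 50.05% *Ccl6*, 47.0% *Ccl7*, 29.95% *Ccl8*, 4.68% *Ccl5* and 2.39% *Ccl11*. *Ccl11* was found in 57.7% of fibroblast-like cells (54.9% to 60.5%). For comparison, the shares in satellite glia-like cells were 0.307% to 2.07% over the 10 members and in endothelial-like cells 0% to 3.88%. Median depths there were 4008 and 4329.5 UMIs against 4073 in macrophage-like cells. In fibroblast-like cells, *Ccl3* (2.25%), *Ccl4* (2.74%), *Ccl5* (0.805%) and *Ccl6* (0.403%) were below their own shares in endothelial-like cells. The gates draw on the libraries in unlike numbers, and the part of free RNA in these shares was not tested. *Ccl12* (2.66%) and *Ccl8* (2.74%) in fibroblast-like cells, and *Ccl11* in macrophage-like cells, were above those shares with overlapping intervals for *Ccl8* and *Ccl11*, and *Ccl12* overlapped its interval in satellite glia-like cells. *Ccl9* had no UMI in 438 endothelial-like cells, so a share as high as 0.685% could have been missed.

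Within macrophage-like cells the genes were very unevenly loaded. A cell had a median of 4 of the 10 members and 0.722% of its UMIs in the family, and the highest cell had 9.27%. Of the 1005 cells, 394 had over 1%, which were 120 of 246, 15 of 72, 213 of 486 and 46 of 201 in the 4 libraries. For *Ccl7*, 50 of the 472 positive cells held at least 50% of its UMIs, and for *Ccl8*, 28 of 301 did. *Ccl3* and *Ccl4* were found together in 547 cells, 80.4% of those with *Ccl3* and 84.2% of those with *Ccl4*. Of the cells with *Ccl7*, 79.4% also had *Ccl12*, against 65.2% of all macrophage-like cells. These overlaps are descriptions, since deeper cells detect more of every gene.

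Across 42 summed profiles of 15 types, the members most alike in level were *Ccl12* and *Ccl8*, with a Pearson's r of log2(CPM + 10) of 0.91. Next came *Ccl6* and *Ccl9* (0.88), *Ccl3* and *Ccl4* (0.88), *Ccl3* and *Ccl9* (0.87), *Ccl4* and *Ccl9* (0.86), *Ccl3* and *Ccl6* (0.85) and *Ccl2* and *Ccl7* (0.83). Both genes of each of these pairs are in the same chromosomal cluster. Within its own cluster *Ccl11* stood at 0.54 with *Ccl7*, 0.39 with *Ccl2*, 0.001 with *Ccl8* and -0.01 with *Ccl12*. Across the clusters, *Ccl2* and *Ccl9* reached 0.74. The profiles share libraries and were made with the same gates, so these values are descriptions. Outside the family and the markers, the genes with the most similar profile were *Pf4*, *Folr2* and *Lilra5* for *Ccl12* (0.94 to 0.95), *Slc37a2*, *Plau* and *Cbr2* for *Ccl8* (0.95 to 0.96) and *Ms4a4d*, *Nnmt* and *Col6a1* for *Ccl11* (0.94 to 0.95). They were *Lrrc25*, *Tlr2* and *Clec12a* for *Ccl3*, *Cd86*, *Gm6377* and *Lat2* for *Ccl4*, *Wfdc17*, *Cd300a* and *Sirpb1c* for *Ccl6*, and *Mpeg1*, *Ms4a6c* and *Clec4a3* for *Ccl9*, at 0.92 to 0.96. For *Ccl2* they were *Tgfbi*, *Cyp27a1* and *Hpgd* (0.87 to 0.88) and for *Ccl7* *G530011O06Rik*, *Cmklr1* and *Tmem119* (0.90). The likeness was weakest for *Ccl5*, with *Cd28*, *Cass4* and *Cd4* at 0.73 to 0.75.

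Macrophages that carry *Cd163* or *Mrc1*, scavenger receptors of tissue-resident macrophages, were compared with those in which neither was detected, within the same libraries. The cells with these genes numbered 177, 43, 301 and 166 and those without 69, 29, 185 and 35. Of the 9 members tested, 6 were called, beside 7.61% of all 4152 genes. The 4 that were higher with the receptors, beside 3.68% of all genes, were *Ccl8*, *Ccl7*, *Ccl12* and *Ccl2*, all of the first chromosomal cluster. The 2 that were lower, beside 3.93%, were *Ccl5* and *Ccl4* of the second. The member not tested was *Ccl11*, which is also of the first cluster. It stood at 21.9, 6.70, 2.48 and 2.17 CPM with the receptors and 3.85, 0, 9.92 and 5.62 CPM without.

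*Ccl8* differed most. It stood at 1038, 208, 1189 and 1156 CPM in the cells with the receptors and at 53.9, 18.3, 107 and 44.98 CPM in those without. It was higher with them in 4 of 4 libraries, and the ranges did not overlap (log2 fold change 3.80, SE 0.18, edgeR adjusted p = 3.4e-11).

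*Ccl7* stood at 2378, 643, 2405 and 1154 CPM with the receptors and 1504, 420, 600 and 399 CPM without (log2 fold change 1.20, SE 0.18, adjusted p = 0.00026). *Ccl12* stood at 4484, 1936, 2605 and 1799 CPM with and 2401, 1370, 1183 and 1068 CPM without (0.77, SE 0.12, adjusted p = 0.00031). *Ccl2* stood at 2196, 878, 2078 and 666 CPM with and 1924, 676, 802 and 484 CPM without (0.57, SE 0.16, adjusted p = 0.036). Each was higher with the receptors in 4 of 4 libraries, although the ranges over libraries overlapped.

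*Ccl5* stood at 126, 80.4, 11.2 and 2.17 CPM with the receptors and 1716, 475, 38.6 and 0 CPM without. It was lower with them in 3 of 4 libraries (log2 fold change -3.18, SE 0.27, adjusted p = 2.9e-07), and the last library had 2 UMIs in all. Of the 634 *Ccl5* UMIs of macrophage-like cells, 88.5% lay in 12 cells, of which 9, 1, 2 and 0 were in the 4 libraries. The *Ccl5* difference thus rested on few cells, and their part in it was not tested. *Ccl4* stood at 3481, 2231, 3316 and 1337 CPM with and 6071, 2402, 3148 and 2716 CPM without, lower in 3 of 4 libraries (-0.55, SE 0.15, adjusted p = 0.030). *Ccl3* pointed the same way without passing the test (-0.48, SE 0.16, adjusted p = 0.077), and *Ccl6* (-0.23) and *Ccl9* (-0.32) did not pass it either. The calls for *Ccl2* and *Ccl4* were each lost without 2 of the 4 libraries: *Ccl2* without control replicate 2 or injury replicate 1, *Ccl4* without control replicate 1 or injury replicate 2.

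A cell is more likely to show a receptor UMI when it is deeper, and median depths were 2739, 3113, 4714 and 5003 UMIs with and 3676, 3360, 4578 and 4637 UMIs without. In control 1 and control 2 the cells with the receptors were the shallower ones, and in the injury libraries the deeper ones. The part of depth in this split was not tested.

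Of the 12 fixed inflammatory inducers and NF-kB feedback genes, 9 were tested in this split, and *Il1b* (-0.93, edgeR adjusted p = 0.00063) and *Tnf* (-0.96, adjusted p = 0.0024) were lower with the receptors. Among the 10 other CC ligands 1 could be tested, *Ccl24*, a further eotaxin, and it was higher with them (2.52, adjusted p = 0.00031). The receptor *Ccr2* was lower (-1.005, adjusted p = 0.00016). None of the 12 immediate early and stress genes was called.

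**Figure D2:**
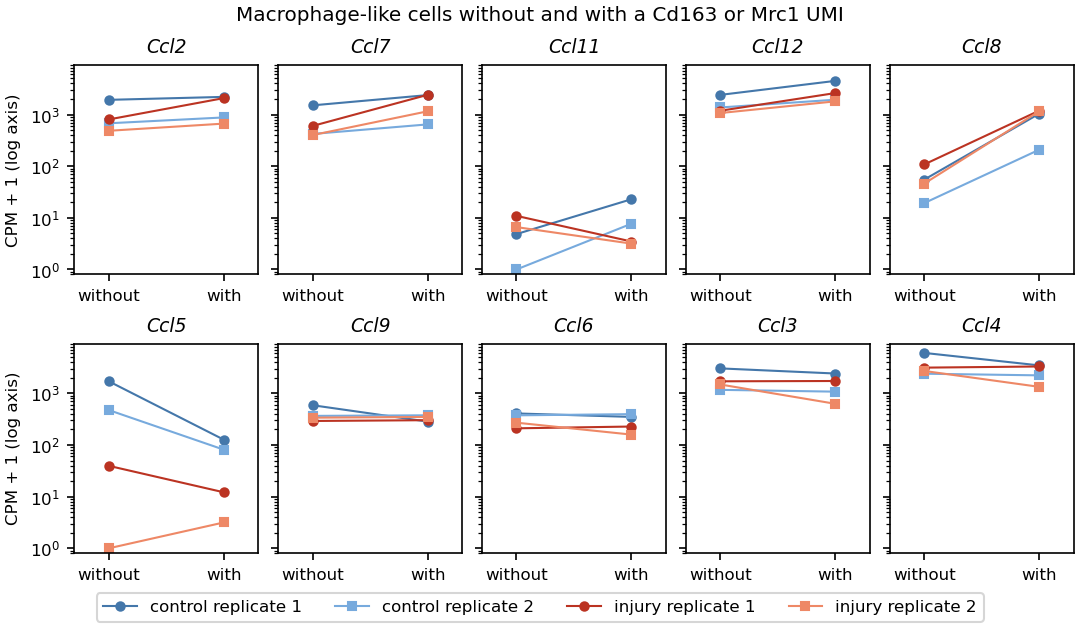
CPM of each chemokine in macrophage-like cells without and with a UMI of *Cd163* or *Mrc1*, 1 panel per gene and 1 line per library. The lines of *Ccl8* rise in all 4 libraries, from between 18.3 and 107 CPM to between 208 and 1189 CPM, and those of *Ccl5* go down in 3 of the 4.

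Receptors of the family were looked at in the same gates. In macrophage-like cells *Ccr1* and *Ccr2* were above the log-scale mean of the other types, and so was the atypical receptor *Ccrl2*. *Ccr2* stood there at 372, 394, 328 and 269 CPM. *Ccr1* stood at 73.1 and 116 CPM in the control libraries and 196 and 238 CPM in the injury libraries. The groups did not overlap, as for 39.9% of all genes in these cells. *Ccr1* did not pass the test between conditions (log2 fold change 1.10, SE 0.28, edgeR adjusted p = 0.43). In fibroblast-like cells the atypical receptor *Ackr3*, which takes up CXC chemokines, was above the log-scale mean of the other types. So were the ligands *Ccl19* and *Ccl27a*.

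The comparison the study was built for is injury against control. Over all kept cells, 0 of the 10 members were called, as were 0% of the 13165 genes tested, with 181 genes and no member at an unadjusted p under 0.05. DESeq2 also called no member. In the summed profile of a whole library, fewer cells of a type and less RNA per cell cannot be told apart. *Ccl8* alone had groups that did not overlap, 138 and 7.45 CPM against 223 and 198 CPM, beside 24.6% of all genes (log2 fold change 1.56, SE 1.29, adjusted p = 1.0).

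The control libraries were far apart. *Ccl4* stood at 1046, 147, 984 and 332 CPM and *Ccl12* at 777, 78.9, 588 and 331 CPM over all cells. Each was highest in control replicate 1 and lowest in control replicate 2. When each library was left out in turn, the fold change of 9 members turned sign and only that of *Ccl8* did not. The 2 control libraries held 246 and 72 macrophage-like cells.

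Within types, 7 had at least 10 cells in every library and were tested. In macrophage-like cells 0 of the 9 members tested were called, as were 0% of all 7034 genes, with 576 genes, *Ccl5* and *Ccl6* among them, at an unadjusted p under 0.05. With 2 libraries per group an exact permutation test cannot go below 0.33. The groups did not overlap for *Ccl5*, *Ccl6*, *Ccl8* and *Ccl9*, 4 of 9 members beside 39.9% of all genes.

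*Ccl5* stood at 638 and 247 CPM in control and 21.0 and 1.82 CPM in injury macrophage-like cells (log2 fold change -5.22, SE 0.87, edgeR adjusted p = 0.28). Without any 1 library, in fits that leave 1 library in a group, the log2 fold changes were -8.09 to -4.23. Cells with a UMI numbered 25 and 7 against 13 and 2, which are 10.2% and 9.72% against 2.67% and 0.995% of cells. Of the 634 UMIs, 88.5% lay in 12 cells, of which 9, 1, 2 and 0 were in the 4 libraries, and 1 of the 12 had a T or NK marker and 6 a dendritic marker. The groups did not overlap in level or in share of cells, and the level rested on few cells. Dendritic markers were also found in T cell-like and NK cell-like cells with *Ccl5*, and the part of cells with them in the difference was not tested. Without the macrophage-like cells that carried any T, B or NK marker, the levels were 479, 287, 29.7 and 0 CPM.

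*Ccl6* stood at 368 and 386 CPM in control and 221 and 176 CPM in injury (log2 fold change -1.05, SE 0.28, adjusted p = 0.45). *Ccl8* stood at 721 and 128 CPM in control and 799 and 976 CPM in injury (0.84, SE 0.68, adjusted p = 0.81), a value that rested on which control library was used. Its log2 fold change was 2.72 without control replicate 1 and 0.09 without control replicate 2. *Ccl9* stood at 382 and 371 CPM against 298 and 347 CPM (-0.38, SE 0.25, adjusted p = 0.75).

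*Ccl2*, *Ccl3*, *Ccl4*, *Ccl7* and *Ccl12* had overlapping groups in macrophage-like cells, with log2 fold changes of -0.72 to -0.09. All 5 were higher in replicate 1 than in replicate 2 in both conditions. So were the summed 12 inducers and feedback genes, at 4197, 2164, 4247 and 1713 CPM, and the summed 12 immediate early and stress genes, at 26251, 9813, 12246 and 6418 CPM. Papain and collagenase digestion is known to induce such genes, and their part in the chemokine levels was not tested. Between conditions, 12 of 12 immediate early and stress genes had a negative fold change in macrophage-like cells, with a median of -1.01 beside -0.0031 over all genes, and none was called. This was not particular to these cells. Of the genes tested, 11 of 12 were negative in satellite glia-like, 10 of 10 in myelinating Schwann-like and 10 of 11 in fibroblast-like cells. In smooth muscle-like cells 8 of 11 were, in neutrophil-like cells 4 of 6 and in endothelial-like cells 3 of 12.

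**Figure D3:**
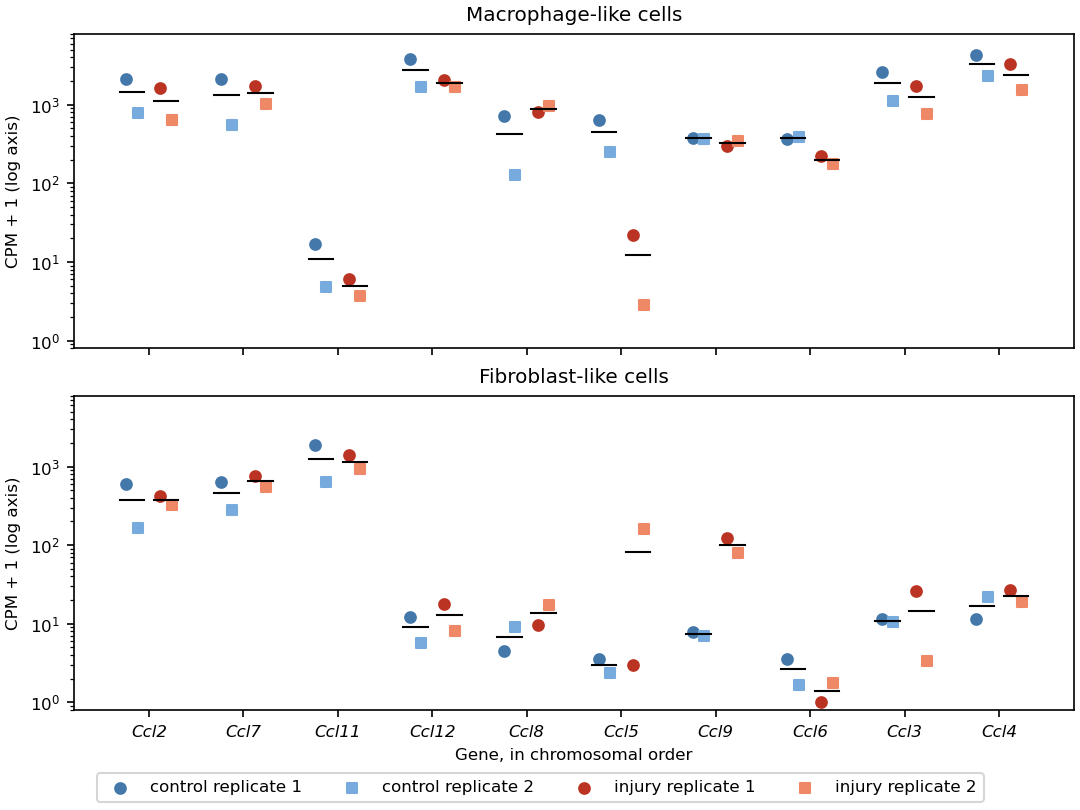
CPM plus 1 on a log axis for each chemokine in macrophage-like and fibroblast-like cells, with 1 point per library coloured by condition and a black bar at the mean of the 2 libraries. In fibroblast-like cells the injury points of *Ccl9* (122 and 79.3 CPM) lie far above the control points (6.95 and 6.05 CPM), and in macrophage-like cells those of *Ccl5* lie below.

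In fibroblast-like cells *Ccl9* was higher after injury, the only member called in any of the 7 types. It stood at 6.95 and 6.05 CPM in control and 122 and 79.3 CPM in injury (log2 fold change 4.03, SE 0.38, edgeR adjusted p = 0.046), in 1 of the 8 members tested beside 0.0333% of all 8997 genes, or 3 genes. The injury libraries were both far above the control libraries, which were alike. The groups did not overlap for *Ccl8* and *Ccl9*, beside 27% of all genes.

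The difference was also one of numbers of cells. *Ccl9* was found in 7 of 283 and 9 of 364 control cells, 2.47% in both libraries, and in 47 of 332 (14.2%, exact 95% interval 10.6% to 18.4%) and 40 of 263 injury cells (15.2%, 11.1% to 20.1%). With each cell thinned to 1000 UMIs the shares were 0.717%, 0.682%, 6.01% and 5.81%. The cell with the most *Ccl9* held 31 of the 182 UMIs of injury replicate 1, and without the top cell of each library the levels were 5.23, 5.39, 102 and 72.6 CPM. The *Ccl9* UMIs lay both in fibroblast-like cells with *Pi16* or *Dpp4*, at 0, 3.04, 130 and 92.7 CPM, and in those without, at 8.40, 6.90, 120 and 75.7 CPM.

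Macrophage-like and monocyte-like cells hold *Ccl9* too, so their markers were measured in the fibroblast-like cells. The 8 macrophage markers summed to 78.2 and 80.6 CPM in control and 76.6 and 122 CPM in injury, with 0 to 2 of the 8 at 0. The 8 monocyte markers summed to 133 and 82.0 CPM in control and 273 and 197 CPM in injury, with 1 or 2 at 0, and so moved with *Ccl9*. The part of monocyte RNA in this sum was not tested. Macrophage-like cells had 24440 CPM of the former and monocyte-like cells 12565 CPM of the latter. Of the fibroblast-like cells with *Ccl9*, 80.6% had a UMI of any myeloid marker (median depth 5116 UMIs), against 58.3% of those without *Ccl9* (3983 UMIs). By library these shares were 85.7%, 77.8%, 78.7% and 82.5% against 67.4%, 44.8%, 50.5% and 78.5%. They were thus close in injury replicate 2, and the control shares with *Ccl9* came from 7 and 9 cells. In the 490 fibroblast-like cells with no myeloid or lymphoid marker, *Ccl9* stood at 3.46 and 2.50 CPM in control and 32.0 and 112 CPM in injury, from 1, 2, 18 and 26 UMIs. The level was thus below that of all fibroblast-like cells in injury replicate 1 and above it in injury replicate 2, and the difference between conditions did not pass the test (log2 fold change 4.43, adjusted p = 1.0).

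The call was close to its threshold. It held in DESeq2, with RLE factors, with the replicate number as a block and with no filter on low counts. Fits without 1 library leave 1 library in a group, and only their log2 fold changes, 3.60 to 4.35, are given. It was lost with all barcodes (adjusted p = 0.33), a looser gate (0.091), a stricter gate (0.060) and types taken from clusters (0.20), at log2 fold changes of 3.61 to 4.22.

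**Figure D4:**
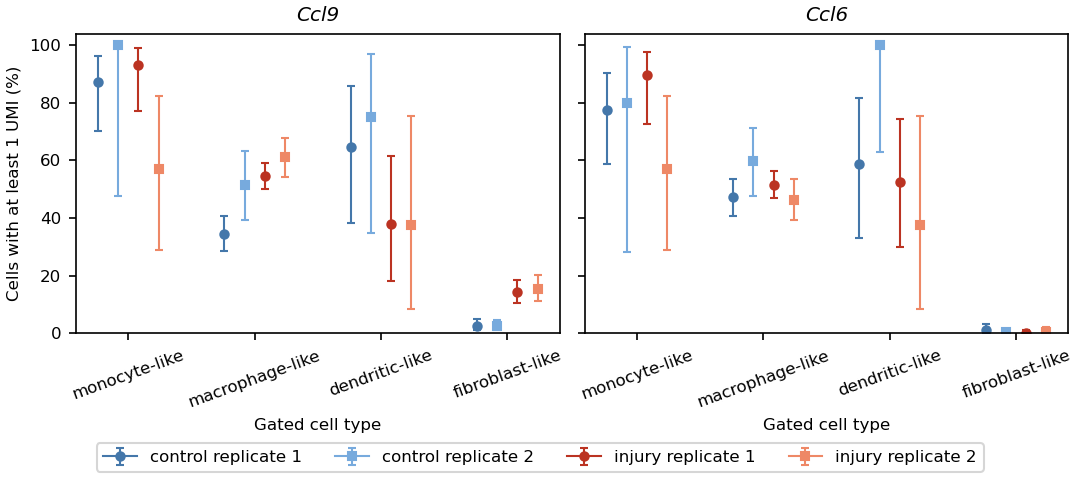
Percent of cells with a UMI of *Ccl9* and of *Ccl6* in monocyte-like, macrophage-like, dendritic-like and fibroblast-like cells, 1 point per library with its exact 95% binomial interval (counting error only). In fibroblast-like cells the injury libraries are at 14.2% and 15.2% for *Ccl9* against 2.47% in both control libraries, and *Ccl6* is near 0 in all 4.

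The other chemokines of fibroblast-like cells were not called between conditions. *Ccl7* stood at 631 and 279 CPM in control and 747 and 546 CPM in injury (log2 fold change 0.57, SE 0.42, edgeR adjusted p = 1.0). *Ccl2* (595 and 164 against 425 and 321 CPM) and *Ccl11* (1871 and 637 against 1396 and 917 CPM) had log2 fold changes of 0.04 and -0.05. The control libraries bracketed the injury libraries for both. *Ccl8* stood at 3.48 and 8.06 against 8.73 and 16.3 CPM (1.11, SE 0.55, adjusted p = 1.0).

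In the other 5 types, satellite glia-like, myelinating Schwann-like, endothelial-like, smooth muscle-like and neutrophil-like cells, no member was called, as were 0% of the genes in each. The genes tested numbered from 784 in neutrophil-like to 8808 in satellite glia-like cells.

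Whether the effect of injury differed between types needs its own test. In 1 fit over macrophage-like, fibroblast-like, endothelial-like and satellite glia-like cells, the injury effect of each type was set against the mean of the other 3. No member was called in any type, beside 0% of 11111 genes for macrophage-like, endothelial-like and satellite glia-like cells and 0.009% for fibroblast-like cells. For *Ccl9* this fit gave no usable value, since endothelial-like cells had no *Ccl9* UMI in any library. In a fit of macrophage-like and fibroblast-like cells alone, added after that was seen, the *Ccl9* effect was larger in fibroblast-like cells (log2 difference 4.33, SE 0.39, edgeR adjusted p = 0.0043), 1 of 10 members beside 0.0204% of 9784 genes. *Ccl5* had the next smallest p in that fit, with its fibroblast-like value from 1 cell (log2 difference 9.44, SE 1.99, adjusted p = 0.41).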

How the data were processed

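For each library the authors deposited the Cell Ranger matrix (mm10) of raw UMI counts, before the cell filters, the CPM scaling and the clustering of their methods in Partek. The filter on cells was that of the methods, from 600 to 15000 UMIs, from 500 to 4000 genes and a mitochondrial share under 10%. A cell took the type with most of its 8 markers detected, if at least 3 were and the next type had at least 2 fewer (143 of 144 markers listed). Scrublet marked 0.530% of barcodes as doublets, and these were kept in the main values. Counts were summed per library and type and tested across libraries with edgeR 4.0.16 (TMM, filterByExpr, quasi-likelihood), in types with at least 10 cells per library. P-values were adjusted over all genes tested. The SE beside an edgeR fold change is its absolute log2 value divided by the square root of the quasi-likelihood F statistic. In simulated data with 200 genes changed 8-fold, 97.5% were recovered in macrophage-like and 95.5% in fibroblast-like cells. The simulation gave every gene the same fixed spread between libraries and changed only genes with enough UMIs. The spread of the real libraries was not copied, so these shares do not measure the power of the tests in these data. The 2 libraries of a group were not 1 library deposited again (chi-square of their counts per degree of freedom 69.3 and 33.9), and n counts libraries as labelled. Alternatives were DESeq2 1.42.0, RLE factors, no filter on low counts, a replicate block, each library left out, all barcodes, other gates and clusters. All 10 members were named, with the 3 genes most like each, called genes of the fixed lists and up to 4 abundant ones. The members, lists and tests were chosen with earlier results of these data known. Intervals on shares are exact binomial and cover counting error only. Part of the results for the list of CC receptors is not reported here.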

Additional observations from a re-analysis of the deposited data

Results flagged for a closer look

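*Ccl9* was set apart because its libraries did not overlap between conditions in 2 types and lay in opposite order. Non-overlap alone is common here, at 27% of all genes in fibroblast-like and 39.9% in macrophage-like cells. In fibroblast-like cells both injury libraries were above both control libraries (log2 fold change 4.03), and in macrophage-like cells both were below (-0.38). The difference between the 2 effects was tested in a fit of these types alone, added after the data were seen, and passed (log2 difference 4.33, SE 0.39, edgeR adjusted p = 0.0043). The macrophage-like effect did not pass its own test (adjusted p = 0.75). Groups of 2 libraries are too small to test for a single far library.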

How the results depend on the processing

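The count of members called over all cells was 0 in every alternative that kept all 4 libraries. The 26 higher calls of members in a type against the other types lay between 26 and 37 over its alternatives, and the 6 calls of the macrophage split between 5 and 7. Within types, the 1 call became 4 with no filter on low counts and 3 with the replicate block. It became 0 with all barcodes, a looser gate, a stricter gate, clusters, or without cells with markers of other immune types. Fits within types without 1 library leave 1 library in a group, so their calls are not counted. In macrophage-like cells *Ccl5* was called with no filter and with the block (edgeR adjusted p = 4.0e-14 with the block). *Ccl6* was called with the block (edgeR adjusted p = 0.0070). Without any 1 library the *Ccl5* log2 fold changes were -8.09 to -4.23. Over all cells the *Ccl5* fold change turned to 0.68 without control replicate 1, in a range of -2.80 to 0.68 without 1 library. The difference of the injury effect between types gave 1 call with no filter and 1 in macrophage-like and fibroblast-like cells alone. Its fits without 1 library also leave 1 library in a group, and their calls are not counted either. The cause of these moves was not tested. The numbers of the labels were not taken as pairing, since there are 2 pairs; same-numbered libraries deviated together with r of 0.24 to 0.48 over the types. Thinning to 1000 UMIs lowered the share of macrophage-like cells with a UMI to 39.8% (*Ccl2*), 32.0% (*Ccl7*), 46.6% (*Ccl12*), 48.5% (*Ccl3*), 52.0% (*Ccl4*), 19.9% (*Ccl6*) and 22.6% (*Ccl9*), and of fibroblast-like cells with *Ccl11* to 42.7%. Removing doublets moved no share beyond the spread.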
